A study of Mus musculus with 6 samples.

Results

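Cxcl12-abundant reticular (CAR) cells are stromal cells of the bone marrow that carry the leptin receptor (Lepr) and secrete the chemokine Cxcl12. Here, CAR cells were taken from single-cell RNA libraries of murine cranial bone marrow and were chosen by measured counts: at least 10 unique molecular identifiers (UMIs, counts of captured transcripts) of Cxcl12, at least 1 UMI of Lepr and 0 UMIs of Cdh5, the VE-cadherin gene of endothelial cells. Among 37576 cells that passed quality control, 187 cells met this rule (0.498%). Marrow came from wild-type C57BL/6 mice, 6 to 8 stated males per age, at 2 months (02m), 12 months (12m) and 18 months (18m). The marrow next to the sagittal suture, with the suture mesenchyme itself, was named CBMA, and the parietal marrow far from the suture was named CBMD. Each of the 6 combinations of age and site was 1 pooled 10x Genomics 3′ library, so mice within a pool could not be told apart, no test between groups was possible, and the intervals below are 95% intervals that cover counting error only. No mouse received a treatment or carried an engineered allele in these libraries.

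In the marrow, CAR cells form long processes that contact sinusoids and blood progenitors. Cxcl12 retains hematopoietic stem cells and B lineage progenitors through the receptor Cxcr4, and stem cell factor (Kitl) keeps the stem cells alive. The transcription factors Ebf3 and Foxc1 maintain the CAR state, and CAR cells express adipocyte genes such as adiponectin (Adipoq) as well as osteoblast genes such as Spp1 and Alpl, since the cells can give rise to both lineages. Levels below are UMIs summed over the CAR cells of a library and divided by their summed total, in counts per 1000000 (CPM).

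Before the CAR cells were compared, the libraries themselves were checked. The libraries held 16031737 to 66264495 UMIs, and the cells that passed quality control had medians of 2806 to 3930.5 UMIs. The 12m libraries stood apart: over all cells, Xist, the RNA of the inactive X chromosome, had 564 CPM in CBMA_12m and 596 CPM in CBMD_12m, against 0.25 to 0.36 CPM in the other 4 libraries, although all mice were stated to be male. Y-linked genes had 81 CPM and 91.1 CPM in the same libraries, against 126 to 215 CPM in the others. Among CAR cells, 2 of 5 in CBMA_12m and 7 of 25 in CBMD_12m held an Xist UMI, 1 and 9 held a Y-linked UMI, and none held both. Age comparisons are therefore also given without the 12m cells that held Xist, for the genes that could still be measured. Pairs of libraries shared 6 to 21 barcodes, none of them a CAR cell.

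CAR cells were nearly absent at 02m and most numerous at 18m next to the suture. In CBMA, the rule found 2 cells of 8580 at 02m, 5 of 2718 at 12m and 109 of 7232 at 18m. In CBMD, it found 1 of 7956 at 02m, 25 of 4464 at 12m and 45 of 6626 at 18m. The 2 libraries of 18m mice thus held 154 of the 187 cells (82.4%).

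The share in CBMA was 0.0233% at 02m (exact Clopper-Pearson interval 0.00282 to 0.0842%), 0.184% at 12m (0.0598 to 0.429%) and 1.51% at 18m (1.24 to 1.82%). The share in CBMD was 0.0126% at 02m (0.000318 to 0.0700%), 0.560% at 12m (0.363 to 0.826%) and 0.679% at 18m (0.496 to 0.908%). Intervals of the 2 CBMD libraries at 12m and 18m overlapped, whereas that of CBMA_18m lay above those of all other libraries. Counted against stromal cells alone, CAR cells were 49.1% of the CAR and other stromal cells in CBMA_18m (42.4 to 55.9%) and 91.8% in CBMD_18m (80.4 to 97.7%), where only 4 other stromal cells were found. This share was 41.7% in CBMA_12m (15.2 to 72.3%) and 71.4% in CBMD_12m (53.7 to 85.4%), with 7 and 10 other stromal cells. At 02m it was 4.17% in CBMA (0.509 to 14.25%) and 2.63% in CBMD (0.0666 to 13.8%), with 46 and 37 other stromal cells. Against stromal cells, the CBMA intervals at 12m and 18m thus overlapped. How many cells of each kind were released from bone at each age or site was not measured, so a share of captured cells and a share in the tissue cannot be told apart.

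**Figure D1:**
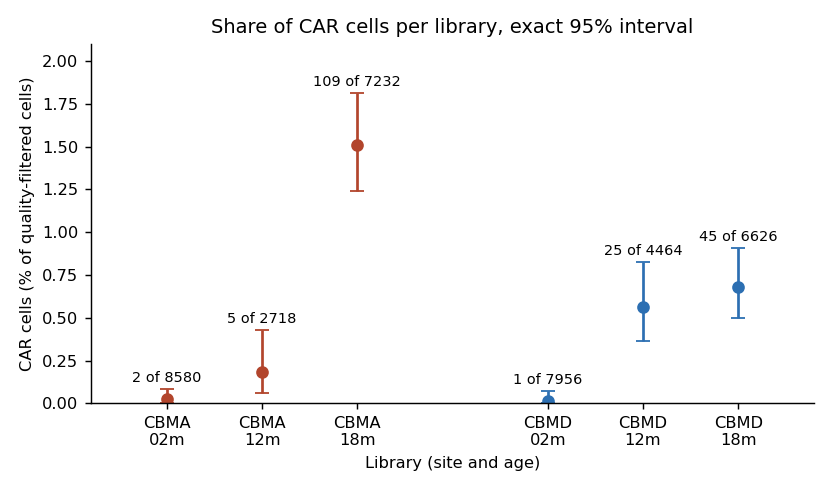
Share of CAR cells among quality-filtered cells in each library (y axis, percent; x axis, site and age). Points are single pooled libraries, bars are exact 95% intervals of the share (counting error only), and the numbers are CAR cells of all quality-filtered cells; CBMA_18m, at 1.51%, is the only library above 1%.

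The 3 cells of 02m mice were mixed in content. In CBMA_02m, 1 cell had 1384 UMIs with 47 of Cxcl12 and 3 of Adipoq, and ranked among the likely doublets. The other had 11230 UMIs, 54 of Cxcl12 and 2486 of neutrophil markers (22.1% of its UMIs), with 1081 UMIs of S100a8 and 1086 of S100a9, the calprotectin subunits of neutrophils. The single cell of CBMD_02m had 14 UMIs of Cxcl12, 0 of Adipoq, 0 of Ebf3 and 113 of Rgs5, a pericyte gene. No 02m cell therefore carried the marker set without a second cell type or a doublet rank beside it, and 02m entered no comparison of levels.

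The 5 cells of CBMA_12m were just as uneven. Their Cxcl12 counts were 18, 19, 28, 36 and 374 UMIs. The cell with 19 had 18481 UMIs in all and held 617 of Dcn, 337 of Gsn, 220 of Myoc and 203 of Sfrp2, genes of fibroblasts, together with 225 UMIs of suture and periosteal markers. The cell with 374 was the most typical, with 13 UMIs each of Adipoq and Ebf3 and 78 of Hp. With 5 such cells, CBMA_12m was not used to describe gene lists.

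Cells near the limits of the rule were few. In all, 22 members (11.8%) held exactly 1 Lepr UMI, and 32 further cells had 10 or more Cxcl12 UMIs but 0 of Lepr. Of the members, 11 had 10 to 19 Cxcl12 UMIs, and 10 cells with 5 to 9 Cxcl12 UMIs lay just outside. The median Cxcl12 count was 207 UMIs in CBMA_18m, 167 in CBMD_18m and 108 in CBMD_12m, far above the limit. Only 3 cells were left out for a Cdh5 UMI.

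The label held best in the 18m cells and less well in CBMD_12m. Adipoq, which the rule did not use, was found in 89 of 109 cells of CBMA_18m, 34 of 45 of CBMD_18m and 13 of 25 of CBMD_12m. Ebf3 was found in 96 of 109, 42 of 45 and 17 of 25 of the same cells. Some deep cells of CBMA_18m fell short of the label too. Those with 14302, 13616, 8815 and 9000 UMIs held 10, 26, 28 and 37 of Cxcl12 and 0 of Adipoq and Ebf3. Their part in the site comparison was not tested. After each cell was thinned to 2000 UMIs, Adipoq was still found in 63.6% of CAR cells and in 0% of other stromal cells, against 0.0667% of leukocytes, a class that should lack it. By library, thinned cells with Adipoq were 72.1% in CBMA_18m (62.5 to 80.5%), 54.8% in CBMD_18m (38.7 to 70.2%) and 35.0% in CBMD_12m (15.4 to 59.2%). Ebf3 was found after thinning in 74.0% of CAR cells, 3.90% of other stromal cells and 0.167% of leukocytes. The median depth of CAR cells was 7571 UMIs, against 7933 in other stromal cells and 3703 in leukocytes, and 14 CAR cells were too shallow to be thinned.

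Markers of endothelial cells and mature adipocytes were low in CAR cells, whereas osteoblast and neutrophil markers were not. Of the 10 endothelial markers, 5 were at 0 in CBMA_18m, 7 in CBMD_18m and 4 in CBMD_12m, Cdh5 by the rule, with summed levels of 16.7, 11.3 and 151 CPM. The 8 markers of mature adipocytes summed to 5.56, 8.50 and 20.6 CPM, with Plin1, Cidec and Lep at 0 in all 3 libraries. The 10 osteoblast markers summed to 3281, 2910 and 5934 CPM in CBMA_18m, CBMD_18m and CBMD_12m, with 9, 6 and 9 present and Bglap at 0 in both 18m libraries. Neutrophil markers were uneven: all 12 were present in CBMA_18m at 6907 CPM, against 691 CPM in CBMD_18m and 2248 CPM in CBMD_12m. Of the 109 cells in CBMA_18m, 8 held 20 or more S100a8 UMIs and together carried 2127 of the 2338 S100a8 UMIs of that library. No cell in CBMD_18m and 1 cell in CBMD_12m reached that count.

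To describe what CAR cells shared beyond the rule, the 154 CAR cells at 18m were set against 117 other stromal cells at 18m (at least 5 UMIs of Col1a1, under 10 of Cxcl12, 0 of Cdh5 and Ptprc), of which 113 came from CBMA. The classes were split by Cxcl12, and only other stromal cells were also chosen by Col1a1 and Ptprc, so the values are a description. Among 6618 genes with at least 50 UMIs over both classes, 21.6% were at least 1.5-fold higher in CAR cells and 14.9% at least 1.5-fold lower. Secreted niche and plasma proteins were far higher in CAR cells. Kitl had 1547 CPM in CAR cells and 16.3 CPM in other stromal cells, a 95.1-fold ratio (interval 60.0 to 161). Vcam1, the adhesion molecule that holds leukocytes to stroma, had 1820 and 43.4 CPM.

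Haptoglobin (Hp), a hemoglobin scavenger made by the liver, had 4572 CPM in CAR cells and 16.3 CPM in other stromal cells. Kng1, the precursor of bradykinin, had 557 UMIs in CAR cells and 0 in other stromal cells, at least 164-fold higher against a floor of 3 counts. Angiotensinogen (Agt) had 385 and 3.61 CPM, and complement C4b had 936 and 20.8 CPM. Of 14 acute phase and kininogen genes measured, 13 were higher in CAR cells, beside 21.6% over all genes. Since leukocytes also held 1209 CPM of Hp, part of the Hp count in any 1 cell may come from free RNA, which was not tested.

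Defense genes were higher in CAR cells than in other stromal cells. Of the interferon-stimulated genes, 21 of 23 measured were higher in CAR cells and 1 was lower, beside 21.6% higher and 14.9% lower over all genes. MHC class I and antigen processing genes were higher for 15 of 16, and NF-kappaB response genes for 18 of 20. H2-K1, a heavy chain of MHC class I, had 3066 CPM in CAR cells and 281 CPM in other stromal cells. Matrix genes lay the other way: 15 of 20 genes of fibrillar collagens and their cross-linking and 18 of 23 small proteoglycan and matricellular genes were lower in CAR cells. Col3a1, the collagen of loose connective tissue, had 224 and 4421 CPM, and decorin (Dcn), a small proteoglycan that binds collagen, had 1775 and 5542 CPM. Neutrophil and pan-leukocyte markers moved the same way as the defense genes (9 of 9 and 6 of 6 measured were higher in CAR cells), and their part was not tested. The directions of Col1a1, a fibrillar collagen gene, and of Ptprc, a pan-leukocyte marker, were set by how other stromal cells were chosen. With the 8 cells rich in S100a8 left out, 1380 genes were higher and 977 lower, against 1431 and 984 with them.

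**Figure D2:**
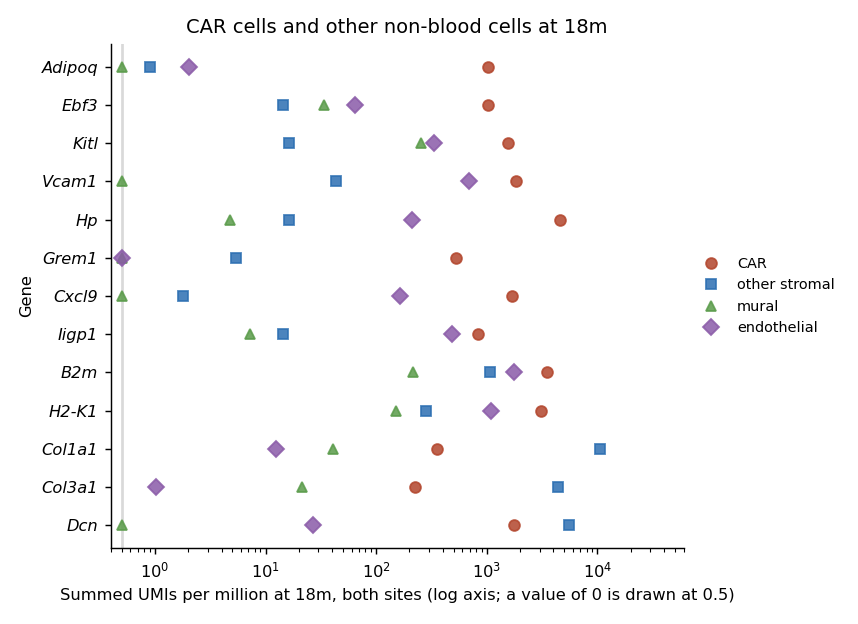
Level of 13 genes in CAR, other stromal, mural and endothelial cells at 18m (x axis, summed CPM on a log axis, with 0 drawn at 0.5; y axis, gene). Each symbol is a class summed over both sites with no replicate; Adipoq lies near 1026 CPM in CAR cells and at or below a few CPM elsewhere, while Col3a1, Dcn and Col1a1 lie highest in other stromal cells, which were chosen by Col1a1.

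The site comparison asked whether CAR cells next to the suture differ from those far from it at 18m. The 109 cells of CBMA_18m (899815 UMIs) were set against the 45 cells of CBMD_18m (352929 UMIs), with 1 library on each side. Genes of the interferon response and of loose connective tissue were higher in CBMA_18m, and several osteogenic genes were lower. Among 4125 genes with at least 50 UMIs over both libraries, 557 (13.5%) were at least 1.5-fold higher in CBMA_18m and 216 (5.24%) at least 1.5-fold lower. Higher genes made up 72.1% of these, but 57.6% with median-of-ratios scaling.

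Kitl and the 4 markers stayed within 1.5-fold between the sites, of which Cxcl12 and Lepr were used to choose the cells and are given as a description. Cxcl12 had 24462 CPM in CBMA_18m and 27958 CPM in CBMD_18m. Lepr had 1197 and 1204 CPM, Ebf3 1005 and 1068 CPM, and Adipoq 1074 and 904 CPM. Kitl had 1379 CPM in CBMA_18m and 1975 CPM in CBMD_18m, a ratio of 0.698 (interval 0.636 to 0.767) that stayed inside the 1.5-fold limit. None of 15 stromal transcription factors were 1.5-fold apart, beside 13.5% higher and 5.24% lower over all genes. Of 14 hematopoietic niche factors, 3 (Bmp4, Cxcl14 and Spp1) were lower in CBMA_18m and none higher, beside 5.24% lower over all genes, with a median log2 ratio of -0.18 against 0.07 over all genes. Cxcl12, used to choose the cells, is among these 14, so the count and the median are partly set by the rule.

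The chemokine Cxcl9, which interferon gamma induces and which draws T cells through Cxcr3, stood farthest apart by the interval bound nearest to 1. It had 2095 UMIs in CBMA_18m and 22 in CBMD_18m, that is 2328 and 62.3 CPM, a 37.4-fold ratio (interval 24.6 to 59.7). Cxcl10, a second ligand of Cxcr3, had 635 and 6 UMIs (706 and 17.0 CPM), a 41.5-fold ratio (interval 18.97 to 114). The counts came from few cells. In CBMA_18m, 34 of 109 cells held Cxcl9 (31.2%, 22.7 to 40.8%), and the top 3 cells, with 427, 415 and 162 UMIs, gave 47.9% of it. In CBMD_18m, 6 of 45 cells held it (13.3%, 5.05 to 26.8%). Thinned to 2000 UMIs, 29 of 104 cells of CBMA_18m (27.9%, 19.5 to 37.5%) and 2 of 42 cells of CBMD_18m (4.76%, 0.582 to 16.2%) held Cxcl9.

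Without the top 3 cells, a choice made after seeing the data, the log2 ratio of Cxcl9 was 4.31 instead of 5.19 and that of Cxcl10 was 3.96 instead of 5.26. Cxcl9 was scarce in other cells of the same libraries. Other stromal cells of CBMA_18m held 2 UMIs in 113 cells, and leukocytes had 13.2 CPM in CBMA_18m and 12.0 CPM in CBMD_18m (0.922% and 0.527% of cells with a UMI). Endothelial cells lay the other way, with Cxcl9 in 2 of 105 cells of CBMA_18m (131 CPM) and 14 of 38 cells of CBMD_18m (244 CPM). Whether the site difference itself differs between CAR and endothelial cells was not tested.

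Further genes that interferons induce moved with Cxcl9. Of 20 interferon-stimulated genes measured, 13 were higher in CBMA_18m and none lower, beside 13.5% higher and 5.24% lower over all genes. Their median log2 ratio was 0.88, against 0.07 over all genes. Iigp1, an immunity-related GTPase, had 953 UMIs in CBMA_18m and 88 in CBMD_18m, or 1059 and 249 CPM, a 4.25-fold ratio (3.41 to 5.35). Gbp2, a guanylate-binding protein, had 247 and 53.8 CPM (4.58-fold, 2.87 to 7.76), and Igtp, an immunity-related GTPase, 128 and 25.5 CPM (5.01-fold, 2.55 to 11.2). Rsad2, the antiviral protein viperin, was 6.8-fold higher (2.2 to 34.0), but 80.8% of its UMIs in CBMA_18m came from 1 cell. Summed over the list, CAR cells had 4620 CPM in CBMA_18m and 2292 CPM in CBMD_18m, while leukocytes had 2975 and 2436 CPM and endothelial cells 2774 and 3017 CPM.

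Genes of MHC class I and antigen processing followed at smaller ratios: 8 of 16 were higher and none lower, with a median log2 ratio of 0.54. Over all genes, 13.5% were higher and 5.24% lower, with a median of 0.07. Tap1, which carries peptides into the endoplasmic reticulum, had 116 CPM in CBMA_18m and 53.8 CPM in CBMD_18m (2.15-fold, 1.31 to 3.71). H2-T23, a nonclassical class I molecule, had 252 and 139 CPM (1.82-fold, 1.33 to 2.53). B2m, the invariant class I light chain, had 3531 and 3386 CPM, within 1.5-fold. Without the 8 cells rich in S100a8, the log2 ratio of S100a8 was 0.38 instead of 3.76, whereas that of Iigp1 and Gbp2 was 2.16 and 2.24 instead of 2.08 and 2.16. Without the 3 cells with most Cxcl9, those of Iigp1 and Gbp2 were 1.39 and 1.46.

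Among the promoters of these genes, one short motif recurred, and 3 promoters that hold it are shown, of genes that were higher in CBMA_18m. The interferon-stimulated response element, searched as GAAA, any 2 bases and GAAA again on both strands in the 250 bases before and 50 after each RefSeq start (GRCm38.p6), was found in 14 of 20 promoters of the interferon list (70%), against 1131 of 32851 promoters in all (3.44%). It was found in 4 of 15 promoters of the MHC list and 3 of 16 of the chemokine list (Ccl19, Cxcl10 and Cxcl14). Only 20 of the 28 interferon genes and 16 of the 23 chemokine genes had a promoter to search. Cxcl9 and Iigp1, also higher in CBMA_18m, were not among the genes with a match. This does not tell a promoter without the motif from a gene that had no promoter to search. Cxcl14, with a match, was lower in CBMA_18m (0.610). Whether a match goes with the site difference was not tested. The gamma-activated site, searched as TTCNNNGAA, was found in 7 of 20 promoters of the interferon list (35%) and 2726 of all (8.30%), and in 1 of 15 of the MHC list (6.67%) and 1 of 16 of the chemokine list (6.25%). Capitals mark the match to the interferon-stimulated response element on either strand, whose first base lies 213, 59 and 34 bases before the start of Cxcl10, Gbp2 and Igtp. The stretches are the 250 bases before each start, 5′ to 3′ on the strand of the gene, at chr5:92348890-92349139 (minus strand), chr3:142620413-142620662 (plus strand) and chr11:58199306-58199555 (plus strand). A match is a description of the letters and not a shown binding site.
Cxcl10: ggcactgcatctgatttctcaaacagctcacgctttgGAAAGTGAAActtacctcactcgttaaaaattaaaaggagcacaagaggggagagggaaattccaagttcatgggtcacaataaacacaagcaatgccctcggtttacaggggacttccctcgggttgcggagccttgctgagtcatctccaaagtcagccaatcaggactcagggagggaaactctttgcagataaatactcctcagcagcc
Gbp2: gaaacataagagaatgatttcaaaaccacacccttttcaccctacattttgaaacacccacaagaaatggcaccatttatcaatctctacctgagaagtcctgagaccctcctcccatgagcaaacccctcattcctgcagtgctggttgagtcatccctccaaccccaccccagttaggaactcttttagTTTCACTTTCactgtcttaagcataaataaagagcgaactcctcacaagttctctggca
Igtp: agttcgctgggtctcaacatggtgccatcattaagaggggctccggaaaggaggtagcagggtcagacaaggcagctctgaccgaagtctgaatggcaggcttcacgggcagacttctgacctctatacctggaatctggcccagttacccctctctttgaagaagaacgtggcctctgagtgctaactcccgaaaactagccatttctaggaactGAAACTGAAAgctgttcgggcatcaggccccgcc

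Within CBMA_18m, the cells that held Cxcl9 also held most of the other interferon-induced counts. The split was chosen after seeing the values, so it is a description of 34 cells with Cxcl9 and 75 cells without. Iigp1 had 2731 CPM in cells with Cxcl9 and 261 CPM in cells without. Gbp2 had 619 and 69.0 CPM, Igtp 337 and 27.9 CPM, and Cxcl10 2091 and 44.3 CPM. B2m had 5403 and 2637 CPM and H2-K1 had 5146 and 2289 CPM, so that MHC class I followed the same cells.

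Ebf3 and Kitl were close across this split. Ebf3 had 1001 CPM in cells with Cxcl9 and 1006 CPM in cells without, and Kitl 1335 and 1401 CPM. Cxcl12, with 25208 and 24105 CPM, and Lepr, with 1132 and 1228 CPM, were required of every member, and so their closeness is partly set by the rule. Median depth was also alike, 8171.5 and 8579 UMIs. In cells without Cxcl9 the interferon list summed to 2584 CPM in CBMA_18m and 2169 CPM in CBMD_18m, whereas in cells with Cxcl9 it summed to 8884 CPM in CBMA_18m (34 cells) and 3046 CPM in CBMD_18m (6 cells). Interferon gamma itself (Ifng) had 0 UMIs in all 187 CAR cells and was found in leukocytes, at 10.9 CPM in CBMA_18m and 12.8 CPM in CBMD_18m.

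**Figure D3:**
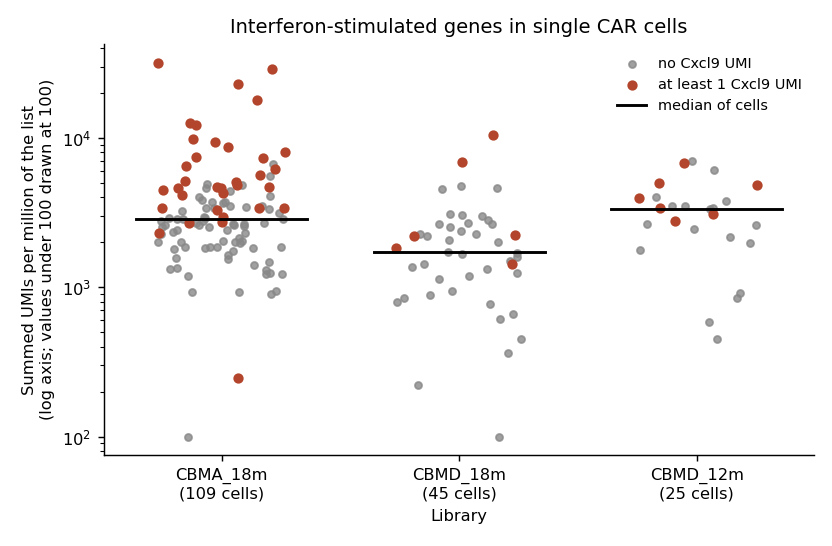
Summed level of the interferon-stimulated genes in single CAR cells (y axis, CPM of each cell on a log axis, with values under 100 drawn at 100; x axis, library). Each point is a cell, red where it held a Cxcl9 UMI, and the line is the median of cells; medians are 2868 CPM in CBMA_18m, 1730 CPM in CBMD_18m and 3353 CPM in CBMD_12m, and the highest cells are those of CBMA_18m with Cxcl9.

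Complement and loose connective tissue genes were also higher next to the suture, and most of those named were found in most cells of CBMA_18m. Complement C3, the component on which all complement pathways converge, had 1267 CPM in CBMA_18m and 422 CPM in CBMD_18m (3.00-fold, 2.53 to 3.58) and was found in 91 of 109 and 23 of 45 cells. The C1 subunit C1s1 had 704 and 292 CPM (2.41-fold, 1.96 to 3.00). Apolipoprotein D (Apod), a lipid carrier, had 1528 and 218 CPM (7.0-fold, 5.57 to 8.93) and was found in 97 of 109 and 18 of 45 cells. After thinning it was found in 70.2% of cells in CBMA_18m (60.4 to 78.8%) and 23.8% of cells in CBMD_18m (12.1 to 39.5%).

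Lumican (Lum), a proteoglycan that spaces collagen fibrils, had 1238 CPM in CBMA_18m and 337 CPM in CBMD_18m (3.67-fold, 3.04 to 4.47). Dcn had 2066 and 1031 CPM (2.00-fold, 1.79 to 2.25), Col3a1 269 and 108 CPM (2.50-fold, 1.77 to 3.62), and the actin-severing protein gelsolin (Gsn) 297 and 76.5 CPM (3.88-fold, 2.61 to 6.00). Col3a1 and Gsn were each found in 66 of 109 cells of CBMA_18m and 14 of 45 cells of CBMD_18m. In each library 1 cell gave much of Gsn, 24.7% and 25.9%. Igfbp5, which binds insulin-like growth factors, had 7599 and 4109 CPM (1.85-fold, 1.75 to 1.96). Of 15 small proteoglycan and matricellular genes, 6 were higher and 2 (Tnc and Omd) lower, and of 17 collagen genes 5 were higher and none lower, beside 13.5% higher and 5.24% lower over all genes. Markers of suture and periosteal mesenchyme, which surrounds these cells in CBMA, summed to 263 CPM in CBMA_18m and 130 CPM in CBMD_18m, with 10 and 6 of the 12 present, and their part was not tested. Mfap4, H19 and Col14a1 had 99, 81 and 80 UMIs in CBMA_18m and 0 in CBMD_18m, at least 12.9-fold, 10.6-fold and 10.5-fold higher, but in 7, 4 and 8 cells only.

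Secreted antagonists of BMP, TGF-beta and Wnt signaling lay on both sides: of 14 measured, 5 were higher and 3 lower in CBMA_18m, beside 13.5% and 5.24% over all genes. Their median log2 ratio was 0.08, against 0.07 over all genes. Sfrp4, a secreted Wnt antagonist, was higher, with 782 CPM in CBMA_18m and 417 CPM in CBMD_18m. So was its relative Sfrp2, one of the suture and periosteal markers, with 87.8 and 42.5 CPM (2.07-fold, 1.18 to 3.86). Sfrp2 was found in only 14 cells of CBMA_18m and 8 of CBMD_18m, and 1 cell gave 43.0% of the CBMA_18m counts. Wif1, a secreted Wnt inhibitor, had 127 UMIs in CBMA_18m and 143 in CBMD_18m, or 141 and 405 CPM, a ratio of 0.348 (0.272 to 0.446). Mmp13, the collagenase of remodeling bone, had 317 and 890 CPM (0.356, 0.302 to 0.419), and tenascin C (Tnc), a matrix protein of injured tissue, 800 and 2165 CPM (0.370, 0.333 to 0.410). Bmp4, a bone morphogenetic protein, had 196 and 425 CPM (0.460, 0.368 to 0.576). Its antagonist gremlin (Grem1) was also lower in CBMA_18m, with 440 and 765 CPM (0.575, 0.492 to 0.674).

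The vitamin D receptor (Vdr) had 41.1 and 128 CPM (0.323, 0.203 to 0.510), and the receptor of leukemia inhibitory factor (Lifr) 587 and 1060 CPM (0.554, 0.484 to 0.634). Spp1, the osteopontin gene, had 2441 and 3825 CPM (0.638, 0.596 to 0.683). Of 14 osteogenic genes, 5 were lower and 1 higher in CBMA_18m, with a median log2 ratio of -0.22. That share of lower genes stood beside 5.24% over all genes. The single gene higher was Col1a1, with 391 and 258 CPM (1.52-fold, 1.20 to 1.93), which dropped below 1.5-fold with median-of-ratios scaling.

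Mmp13, Vdr and Ibsp were higher in cells with Wif1 at both sites, but other osteogenic genes were not. Wif1 was found in 48 of 109 cells in CBMA_18m and 28 of 45 cells in CBMD_18m, and after thinning in 26.0% (17.9 to 35.5%) and 40.5% (25.6 to 56.7%), whose intervals overlap. The genes set beside it here were chosen after seeing the values. In CBMA_18m, Mmp13 had 587 CPM in cells with Wif1 and 81.2 CPM in cells without, and in CBMD_18m it had 1290 and 44.1 CPM. Vdr had 54.8 and 29.1 CPM in CBMA_18m, and 175 and 26.5 CPM in CBMD_18m. Ibsp, the bone sialoprotein gene, had 3472 and 2073 CPM in CBMA_18m, and 3197 and 918 CPM in CBMD_18m. Col1a1 had 334 and 441 CPM in CBMA_18m, and 255 and 265 CPM in CBMD_18m. Spp1 had 2630 and 2275 CPM in CBMA_18m, and 3685 and 4122 CPM in CBMD_18m.

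Summed levels of Apod and Lum were lower in cells with Wif1. Apod had 904 CPM in cells with Wif1 and 2073 CPM in cells without in CBMA_18m, and 138 and 388 CPM in CBMD_18m. Lum had 789 and 1630 CPM in CBMA_18m, and 292 and 433 CPM in CBMD_18m, but its median per cell was 695 and 692 CPM in CBMA_18m, and 147 and 102 CPM in CBMD_18m, so few cells set the summed difference. Adipoq was similar on both sides, with 1130 and 1024 CPM in CBMA_18m and 956 and 794 CPM in CBMD_18m. Cells with both Wif1 and Adipoq numbered 42 of 109 in CBMA_18m and 21 of 45 in CBMD_18m. In CBMD_18m, cells with Wif1 were also deeper, with a median of 7423 UMIs against 4544 UMIs, and its part was not tested.

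**Figure D4:**
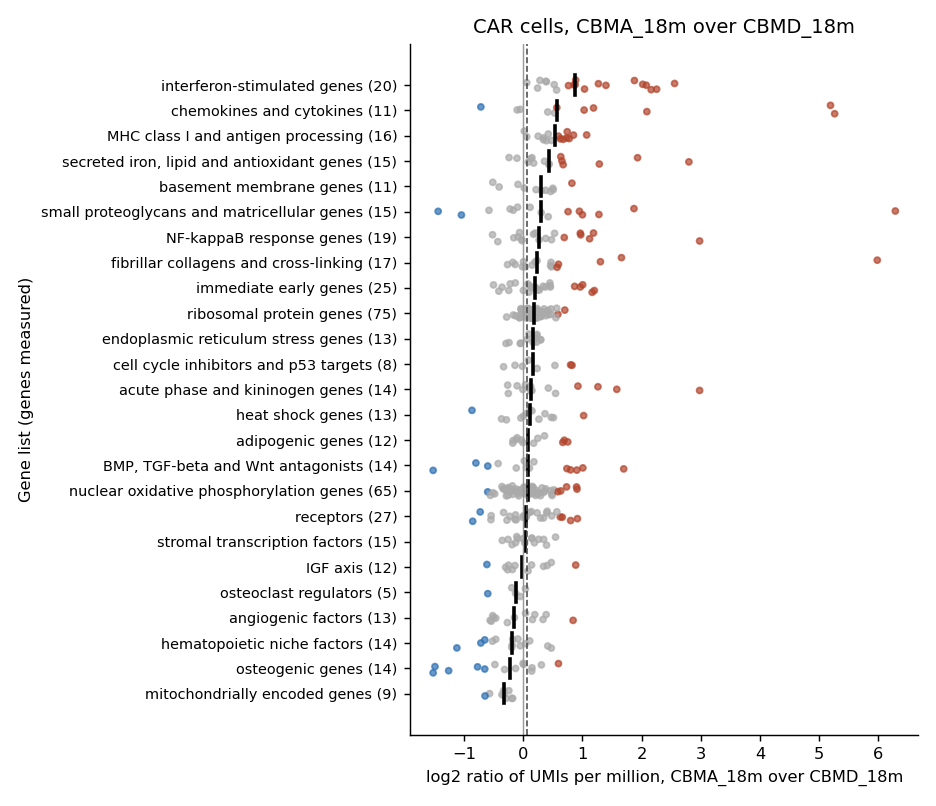
Gene lists in CAR cells at 18m, CBMA_18m over CBMD_18m (x axis, log2 ratio of CPM with 0.5 UMIs added; y axis, lists with at least 4 genes measured and that number). Points are genes, red where at least 1.5-fold higher and blue where at least 1.5-fold lower, black bars are list medians and the dashed line is the median of all 4125 genes; the interferon-stimulated genes have the highest median, 0.88.

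Neutrophil transcripts in CAR cells were higher in CBMA_18m too. S100a8 had 2598 CPM in CBMA_18m and 190 CPM in CBMD_18m, S100a9 had 3248 and 258 CPM, and Retnlg, a resistin-like neutrophil gene, 602 and 45.3 CPM. These counts sat in few cells, since 1 cell gave 33.5% of S100a8, and the median CAR cell held 739 CPM of neutrophil markers in CBMA_18m and 554 CPM in CBMD_18m. In the 8 cells with 20 or more S100a8 UMIs, Cxcl12 had 15213 CPM, against 25039 CPM in the other 101 cells. When 9 further barcodes over 5000 genes (6 of CBMA_18m and 3 of CBMD_18m) were let in, the log2 ratio of S100a8 was -1.34 and that of S100a9 was -1.36, so the direction of both rested on which cells were counted.

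The age comparison asked whether CAR cells far from the suture differ between 18m and 12m. The 45 cells of CBMD_18m (352929 UMIs) were set against the 25 cells of CBMD_12m (145446 UMIs). Bone-forming, immediate early and ribosomal protein genes were lower in CBMD_18m, and genes of the endoplasmic reticulum and some secreted factors were higher. Among 1547 genes with at least 50 UMIs over both libraries, 156 (10.1%) were at least 1.5-fold higher in CBMD_18m and 390 (25.2%) at least 1.5-fold lower, with a median log2 ratio of -0.24. The balance depended on the total: higher genes made up 28.6% of those apart, but 54.0% with median-of-ratios scaling, 58.9% with ribosomal RNA genes left out of the total and 62.8% with barcodes over 5000 genes let in.

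One annotated gene moved the total. Gm42418, whose model on chromosome 17 overlaps ribosomal RNA, had 162492 CPM in CBMD_18m and 16357 CPM in CBMD_12m (9.93-fold, 9.54 to 10.4). Its level moved in the same direction in leukocytes, with 76184 CPM in CBMD_18m and 11054 CPM in CBMD_12m, and in endothelial cells, with 166910 and 16709 CPM. List medians are therefore read beside the median of all genes.

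Osteogenic genes were lower at 18m. Of 13 measured, 8 were lower and 1 higher in CBMD_18m, beside 25.2% and 10.1% over all genes. Their median log2 ratio was -0.91, or -0.67 relative to all genes. Osteoblast markers moved with it, with 2910 CPM in CBMD_18m and 5934 CPM in CBMD_12m, and their part was not tested. Of the 25 cells of CBMD_12m, 3 had osteogenic sums of 64760, 67394 and 136364 CPM with 10, 28 and 108 Cxcl12 UMIs and 0 of Adipoq. Spp1 had 3825 CPM in CBMD_18m and 15147 CPM in CBMD_12m, a ratio of 0.253 (0.236 to 0.27), but 59.5% of the 12m counts came from 1 cell and the log2 ratio was -0.82 without it instead of -1.99. Mmp13 had 890 and 5590 CPM (0.159, 0.139 to 0.182), and Runx2, the master transcription factor of osteoblasts, 187 and 516 CPM (0.363, 0.257 to 0.512). Col1a1 had 258 and 798 CPM (0.323, 0.243 to 0.429). Phex, an osteocyte enzyme of phosphate handling, was the member that was higher, with a log2 ratio of 1.62. Without the 12m cells that held Xist, the log2 ratios were -2.59 for Spp1, -3.0 for Mmp13, -1.92 for Runx2, -1.21 for Col1a1 and 0.99 for Phex, and 7 osteogenic genes were lower.

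Immediate early genes, which cells switch on within minutes of growth signals or of tissue digestion, were lower for 17 of 21 and higher for none in CBMD_18m. Over all genes, 25.2% were lower and 10.1% higher. The list had a median log2 ratio of -1.24, against -0.24 over all genes. Jun had 754 CPM in CBMD_18m and 2723 CPM in CBMD_12m (0.277, 0.236 to 0.324), Atf3 48.2 and 419 CPM (0.115, 0.0629 to 0.199), and Zfp36, which destabilizes cytokine RNA, 153 and 584 CPM (0.262, 0.183 to 0.373). The per-cell sum of the list had a median of 7189 CPM in CBMD_18m and 14948 CPM in CBMD_12m, and the ranges overlapped (0 to 23612 and 553 to 64859 CPM). Endothelial cells of CBMD moved the same way, with 9146 and 17440 CPM, but leukocytes did not, with 17037 and 16354 CPM. Without the 12m cells that held Xist, 16 genes of the list were lower, and the log2 ratios were -1.50 for Jun instead of -1.85, -3.13 for Atf3 instead of -3.09 and -1.41 for Zfp36 instead of -1.93.

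Ribosomal protein genes were lower for 63 of 72 and higher for none in CBMD_18m, beside 25.2% lower and 10.1% higher over all genes. Their median log2 ratio was -0.88, against -0.24 over all genes. The whole list summed to 33471 CPM in CBMD_18m and 60896 CPM in CBMD_12m. With median-of-ratios scaling 40 genes were lower, and with ribosomal RNA genes out of the total 37 were, and without the 12m cells that held Xist 55 were. The same list was lower at 18m in CBMD leukocytes (89952 and 131653 CPM) and endothelial cells (43476 and 83052 CPM). The lower level was therefore seen in all 3 classes compared.

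Genes of endoplasmic reticulum stress, the response to unfolded secretory proteins, were higher for 5 of 10 and lower for none in CBMD_18m, beside 10.1% over all genes. Hspa5, the chaperone BiP, had 1573 CPM in CBMD_18m and 832 CPM in CBMD_12m (1.89-fold, 1.55 to 2.32), and Atf4, a transcription factor of that response, 224 and 110 CPM (2.04-fold, 1.18 to 3.73). The whole list summed to 5072 CPM in CBMD_18m and 3190 CPM in CBMD_12m. Higher members numbered 3, with 1 lower, without the 12m cells that held Xist (log2 ratios of 0.82 for Hspa5 and 1.25 for Atf4), and 9 with ribosomal RNA genes out of the total. In CBMD leukocytes the list had 2656 and 2217 CPM and in endothelial cells 3738 and 3568 CPM.

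Of 13 hematopoietic niche factors, 3 (Kitl, Angpt1 and Bmp4) were higher and 2 (Ccl19 and Spp1) lower in CBMD_18m, beside 10.1% and 25.2% over all genes. Cxcl12, used to choose the cells, is among these 13, so the count is partly set by the rule. Kitl had 1975 CPM in CBMD_18m and 1196 CPM in CBMD_12m (1.65-fold, 1.40 to 1.96), and Ebf3 1068 and 633 CPM (1.69-fold, 1.34 to 2.15). Grem1 had 765 and 275 CPM (2.78-fold, 1.99 to 3.98), Bmp4 425 and 213 CPM (1.99-fold, 1.35 to 3.04), and Angptl4, an inhibitor of lipoprotein lipase, 431 and 158 CPM (2.72-fold, 1.75 to 4.43). Lipoprotein lipase (Lpl) had 1369 and 749 CPM (1.83-fold, 1.48 to 2.27). Pappa, a protease that frees insulin-like growth factors, had 1340 and 653 CPM (2.05-fold, 1.64 to 2.59). Itih5, a hyaluronan-binding inhibitor, had 102 and 7 UMIs (289 and 48.1 CPM; 6.01-fold, 2.81 to 15.3).

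Without the 12m cells that held Xist, the log2 ratios were 0.52 for Kitl, 0.46 for Angpt1, 1.10 for Ebf3, 1.20 for Grem1, 1.69 for Bmp4, 2.09 for Lpl, 1.45 for Angptl4, 0.66 for Pappa and 1.82 for Itih5, so that Kitl and Angpt1 fell inside the 1.5-fold limit. Among niche factors, 1 was then higher and 3 were lower, and the same counts were found with equal weight per cell. Hp, at 4808 CPM in CBMD_18m and 2963 CPM in CBMD_12m (1.62-fold, 1.46 to 1.81), had a log2 ratio of -0.0078 when every cell had equal weight. Kitl (0.35), Pappa (0.38) and Angpt1 (0.39) then also fell inside the 1.5-fold limit. Cxcl12 had 27958 and 25721 CPM and Lepr 1204 and 1334 CPM, and neither was 1.5-fold apart. Adipoq, at 904 and 1224 CPM, was found in 34 of 45 and 13 of 25 cells.

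Several chemokines were lower in CBMD_18m, on counts that few 12m cells held. Cxcl9 had 22 UMIs in CBMD_18m and 45 in CBMD_12m, or 62.3 and 309 CPM (0.202, 0.115 to 0.343), with 60.0% of the 12m counts in 1 cell and a log2 ratio of -2.64 without the cells that held Xist instead of -2.29. Ccl19, a chemokine of lymphoid stroma, had 76.5 and 385 CPM (0.199, 0.121 to 0.320), with 62.5% of the 12m counts in 1 cell, and 92.9% of the 12m Cxcl13 counts came from 1 cell. Of 11 MHC class I genes, 4 were lower and none higher, beside 25.2% lower over all genes, and 2 were lower with median-of-ratios scaling and 3 without the cells that held Xist. The metallothionein Mt1, a metal-binding stress protein, had 363 and 1746 CPM (0.208, 0.167 to 0.258), and its log2 ratio was -2.06 without the cells that held Xist.

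**Figure D5:**
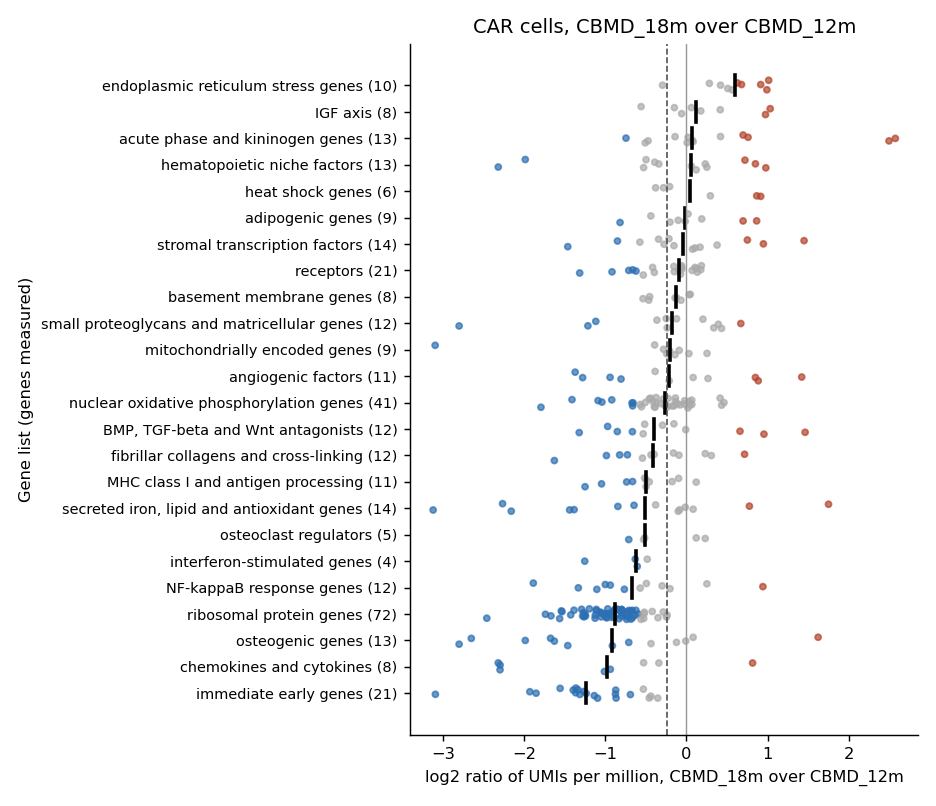
Gene lists in CAR cells far from the suture, CBMD_18m over CBMD_12m (x axis, log2 ratio of CPM with 0.5 UMIs added; y axis, lists with at least 4 genes measured and that number). Points are genes, red where at least 1.5-fold higher and blue where at least 1.5-fold lower, black bars are list medians and the dashed line is the median of all 1547 genes, -0.24; the endoplasmic reticulum stress list has the highest median, 0.59, and the immediate early list the lowest, -1.24.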

How the data were processed

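Per the study's methods, cranial marrow cells were captured with 10x 3′ chemistry, converted with bcl2fastq and aligned to GRCm38 with Cell Ranger. The authors deposited UMI counts per gene and barcode, which were used as deposited and still held barcodes outside the limits below: whole-number counts of 55450 genes, 43420 barcodes and 261183614 UMIs. Each library held 1 pool, so only counting error could be given.

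Barcodes were kept at 500 to 5000 genes, above 500 UMIs and below a mitochondrial share of 25%. The members and gene lists were chosen with earlier results of these data known. Counts were summed over members, and ratios have exact conditional binomial 95% intervals. Doublets were ranked with Scrublet in scanpy 1.11.5 (0.8% per 1000 barcodes, 2393 barcodes) and kept, 17 of them members. Genes were named by rule: rule genes and markers, up to 4 per list and direction with an interval that excludes 1, the 10 farthest per comparison and direction, the 20 with the highest CPM and the 20 highest over other stromal cells. Genes outside the rule (C4b, Dcn against other stromal cells, Ibsp, Ifng, B2m) were added after their values were seen. Ratios were also run on counts simulated with counting error only, the error that the intervals assume. Those counts held no spread between cells or mice, so that spread was not tested. Gene IDs all matched GENCODE M21 on GRCm38. Alternatives are listed at the end.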

Additional observations from a re-analysis of the deposited data

Results flagged for a closer look

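In total, 13 barcodes met the marker rule but held over 5000 genes and were not counted as CAR cells. Of these, 6 came from CBMA_18m, 3 from CBMD_18m and 4 from CBMD_12m, with median Cxcl12 counts of 335, 264 and 740 UMIs. None of them ranked as a doublet, and 5, 2 and 2 held a Ptprc UMI. They stand out because a signal of the studied cells lies in barcodes outside the main measurement.

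Between 18m and 12m, 30 genes of 1534 compared at both sites were at least 1.5-fold apart in opposite directions in CBMA and in CBMD, 20 of them higher at 18m in CBMA and lower in CBMD. Spp1 had 2441 CPM in CBMA_18m and 419 CPM in CBMA_12m, against 3825 CPM in CBMD_18m and 15147 CPM in CBMD_12m. Cxcl9 had 2095 UMIs in CBMA_18m and 0 in CBMA_12m, at least 27.8-fold higher, against 22 UMIs in CBMD_18m and 45 in CBMD_12m. Apod lay the other way, with 1528 CPM in CBMA_18m and 2539 CPM in CBMA_12m, against 218 CPM in CBMD_18m and 61.9 CPM in CBMD_12m. CBMA_12m held only 5 cells and 35836 UMIs, of which 18481 came from the 1 cell rich in Dcn and Myoc, so its values rest largely on that cell or on few UMIs (15 for Spp1). The difference between the sites was not tested.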

How the results depend on the processing

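Of 80 genes named between the sites, 75 kept their direction under each of 12 alternatives in which they could be measured, and of 95 named between the ages, 87 did under each of 14. Not all could be: with at least 200 UMIs, 47 and 30 genes were left, without the Xist cells 82 and with only Y-linked cells 77. The alternatives of at least 20 and at least 200 UMIs used the main ratios, so neither could change a direction. Size moved more often than direction. With no upper limit on genes, 39 of the 95 age genes kept their direction but had a ratio outside the main counting interval. Such genes numbered 18 with equal weight per cell, 16 without the Xist cells and 15 with only Y-linked cells, and between the sites at most 7. Genes that reversed are not in these counts and are named below. The share of CAR cells in CBMD_02m was 0 with Cxcl12 of at least 20 UMIs or with Adipoq in place of Lepr, and in CBMD_12m it was 0.336% with Adipoq in place of Lepr. Between the sites, 1537 genes were higher and 724 lower with at least 20 UMIs, 70 and 32 with at least 200 UMIs, and 336 were lower with equal weight per cell. Between the ages, 271 were higher and 231 lower with median-of-ratios size factors, 628 and 1035 with at least 20 UMIs, 26 and 89 with at least 200 UMIs, 304 and 212 with ribosomal RNA genes left out, and 573 were higher with no upper limit on genes. CAR cells against other stromal cells gave 2396 and 1754 with at least 20 UMIs and 390 and 301 with at least 200 UMIs. Reversed between the sites were Lcn2 (-0.79), Pglyrp1 (-0.79), S100a8 (-1.34) and S100a9 (-1.36) with no upper limit, and Retnlg (-0.0035) without the cells rich in S100a8. Reversed between the ages were Hp (-0.0078), Kng1 (-0.0031) and Pdia6 (-0.10) with equal weight per cell, Cxcl2 (0.93), Pth1r (0.04) and Slit3 (0.07) with no upper limit, Iigp1 (0.56) without the Xist cells, and Col6a1 (0.07) with only cells that held a Y-linked UMI. The cause was not tested, except that a higher minimum leaves fewer genes. Alternatives on S100a8, ribosomal RNA genes, top cells, Y-linked UMIs and other stromal cells were chosen after seeing the data. No paired analysis was possible because each age and site is 1 library. Depth limits the 12m side most, at 145446 UMIs in 25 cells.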
